A study of Mus musculus with 6 samples.

Results

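The genes described here are the integrin and laminin subunits of the mouse, taken from the gene table of a spinal cord injury study by gene name. Of 37475 genes in the table, 37 had a name of the form Itga, Itgb1 to Itgb8, Lama, Lamb or Lamc, and 36 of these had a mean of 10 counts or more over the 6 libraries. They comprise 8 leukocyte integrin subunits, 17 other integrin subunits and 11 laminin chains, and all 36 also passed the filter on low counts used for testing. The subunit just above the limit was Itgae, with a mean of 106.3 counts, and the only one below it was Itgb6, with a mean of 8 counts, so no member lay near the limit. The samples were spinal cords of wild-type mice taken at day 3 after a contusion at T10. One group, called syringin here, had received Syringin at 50 mg/kg by daily intraperitoneal injection, and the other, called PBS, had received the saline vehicle. Syringin is a plant phenylpropanoid glucoside. Each group held 3 biological replicates, all 6 animals were injured, and uninjured cord was not analysed here. The RNA came from whole cord tissue, so fewer cells of a type and less RNA per cell cannot be told apart.

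Integrins are cell surface receptors made of an alpha and a beta chain. They bind matrix proteins or receptors on other cells outside the cell, and talins, kindlins and the actin cytoskeleton inside it. The beta 2 integrins, whose common chain is Itgb2, occur on leukocytes and carry them through vessel walls, while Itgb1 is the common chain of most receptors for collagen, laminin and fibronectin. Laminins are trimers of an alpha, a beta and a gamma chain that form the sheet of basement membranes around vessels, Schwann cells, muscle fibres and the surface of the central nervous system. After cord injury, leukocytes enter through vessels bounded by such membranes.

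The upstream sequences of the 3 subunits that changed, Itgb7, Itga5 and Itgb8, are shown with those of Itgax and Itgam, 2 alpha chains that are neighbours on chromosome 7. Each is the 250 bases before the RefSeq gene start in build GRCm38.p6, 5′ to 3′ on the strand of the gene. Itgb7 lies at chr15:102231936-102232185, Itga5 at chr15:103366792-103367041 and Itgb8 at chr12:119238277-119238526, all on the minus strand, and Itgax at chr7:128129300-128129549 and Itgam at chr7:128062390-128062639, both on the plus strand. Capitals mark matches on either strand to any of 5 motifs, which are GAGGAA (core of sites of PU.1, a myeloid transcription factor), TGANTCA (AP-1), TGACGTCA (the cyclic AMP response element), GGGCGG (the GC box) and TATAAA (the TATA box).
Itgb7: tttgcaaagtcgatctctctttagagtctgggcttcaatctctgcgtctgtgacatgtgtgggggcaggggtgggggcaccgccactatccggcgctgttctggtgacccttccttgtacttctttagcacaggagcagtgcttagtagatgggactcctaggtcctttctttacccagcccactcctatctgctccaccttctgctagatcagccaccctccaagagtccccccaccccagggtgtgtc
Itga5: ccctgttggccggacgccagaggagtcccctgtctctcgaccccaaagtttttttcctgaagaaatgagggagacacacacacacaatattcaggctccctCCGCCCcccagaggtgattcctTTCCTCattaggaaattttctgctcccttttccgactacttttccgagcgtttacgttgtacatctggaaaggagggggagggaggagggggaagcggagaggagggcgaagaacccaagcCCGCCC
Itgb8: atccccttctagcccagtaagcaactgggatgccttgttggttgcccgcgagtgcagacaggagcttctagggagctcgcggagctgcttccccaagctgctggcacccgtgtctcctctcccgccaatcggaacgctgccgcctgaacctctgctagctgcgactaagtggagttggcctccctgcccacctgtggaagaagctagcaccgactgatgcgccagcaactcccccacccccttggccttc
Itgax: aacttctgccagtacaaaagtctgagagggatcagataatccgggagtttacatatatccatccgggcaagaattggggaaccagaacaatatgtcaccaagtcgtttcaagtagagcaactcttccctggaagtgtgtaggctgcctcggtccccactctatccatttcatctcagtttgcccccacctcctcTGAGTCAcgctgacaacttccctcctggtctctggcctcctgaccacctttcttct
Itgam: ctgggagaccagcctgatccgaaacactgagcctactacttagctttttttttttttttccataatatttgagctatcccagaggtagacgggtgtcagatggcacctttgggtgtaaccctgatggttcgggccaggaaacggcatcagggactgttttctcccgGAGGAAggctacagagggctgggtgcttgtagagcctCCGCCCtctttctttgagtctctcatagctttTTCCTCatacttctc

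Windows were found by symbol, with chromosome 18 left out, for 22 of the 36 members. The Itgam window held 2 GAGGAA matches and 1 GC box, the Itga5 window 1 GAGGAA match and 2 GC boxes, and the Itgax window 1 AP-1 match. The windows of Itgb7 and Itgb8 held none of the 5 motifs. Over all 32851 windows of this length, 23.3% held GAGGAA, 6.75% the AP-1 motif, 1.55% the response element, 32.7% the GC box and 12.4% TATAAA. No window of the 22 members held TATAAA or the response element. GAGGAA was found in 1 of 4 leukocyte integrin windows, 5 of 13 windows of other integrins and 5 of 5 laminin windows, where the first window of each gene was counted. The matches are letters in these windows and say nothing of binding.

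Library totals ran from 65579117 to 78843034 estimated counts. Over the 6 libraries a count of 4 was more frequent (6599 gene values) than a count of 3 (4725) or 5 (4014), and 8 and 12 stood out likewise, so these counts may not be a plain tally of fragments, and their counting error is unknown. Calls are from edgeR's quasi-likelihood test at a Benjamini-Hochberg adjusted p under 0.05, and by this rule 359 of 22114 genes tested were higher and 749 were lower in the syringin group. Levels between libraries are in CPM, a gene's counts per 1e+06 TMM-scaled counts of its library, always listed for replicates 1, 2 and 3. Some sums of cell type markers did not overlap between the groups, while single markers in them did. The groups overlapped in the macrophage markers Lyz2, Ccr2 and Adgre1 and in the Schwann cell marker Egr2. They also overlapped in the astrocyte markers Gfap, Aqp4, Gja1 and Aldh1l1. The summed level of 8 macrophage and monocyte markers was 1970, 5220 and 3159 CPM in the syringin libraries and 1542, 1830 and 1963 CPM in the PBS libraries, and 2 of the 8, Msr1 and Arg1, rose. For 6 astrocyte markers the sum was 4718, 6453 and 6542 CPM in the syringin libraries and 7066, 8585 and 8174 CPM in the PBS libraries, and for 6 Schwann cell and peripheral myelin markers it was 333.6, 566.9 and 344.6 CPM in the syringin libraries and 628.1, 2106 and 1566 CPM in the PBS libraries, where 1 of the 6, Ncmap, fell in the syringin group. Markers of sensory ganglion neurons, which lie outside the cord, summed over 8 genes to 275.6, 27.1 and 130.2 CPM in the syringin libraries and 344.7, 53.8 and 58.1 CPM in the PBS libraries. Central myelin, astrocyte and neuron markers of the labelled tissue were present in every library, with Mbp at 9333 CPM or more, Gfap at 3341 CPM or more and Snap25 at 279.7 CPM or more. No marker list had a gene at 0 in all libraries.

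Levels can be compared between genes in FPKM, which is scaled by transcript length. Itgb1 had the highest level of the 36 genes, 112.0 ± 13.9 FPKM in the syringin group and 90.5 ± 5.24 FPKM in the PBS group (mean ± SD, n = 3 in each group here and below). Its lowest library, PBS replicate 1 at 84.6 FPKM, was above every library of Itgb5, the next gene by mean, but below Itgb2 in syringin replicate 2, at 86.2 FPKM. Itgb5, which pairs with Itgav in a vitronectin receptor, averaged 61.9 ± 20.2 FPKM in the syringin group and 53.5 ± 8.11 FPKM in the PBS group. Itgb2 stood at 66.4 ± 17.5 FPKM in the syringin group and 43.1 ± 1.11 FPKM in the PBS group, and its alpha partner Itgam, the macrophage antigen CD11b, at 52.0 ± 13.6 FPKM in the syringin group and 42.0 ± 3.91 FPKM in the PBS group. The libraries of Itgb5, Itgb2 and Itgam overlapped, so their order is not beyond their spread. Among laminin chains Lamc1, the common gamma chain, and Lamb2 were highest, with means over the 6 libraries of 19.2 and 17.7 FPKM, followed by Lamb1 at 6.80 FPKM. The alpha chains were lower, Lama5 at 4.07, Lama4 at 4.07, Lama2 at 1.71, Lama1 at 1.27 and Lama3 at 0.242 FPKM. Lama4 and Lama5 are the alpha chains of endothelial basement membranes, and their libraries overlapped. Lama3 and Lamb3, chains of epithelial basement membranes, were at the bottom of the order, at 0.242 and 0.23 FPKM, and their libraries overlapped.

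**Figure D1:**
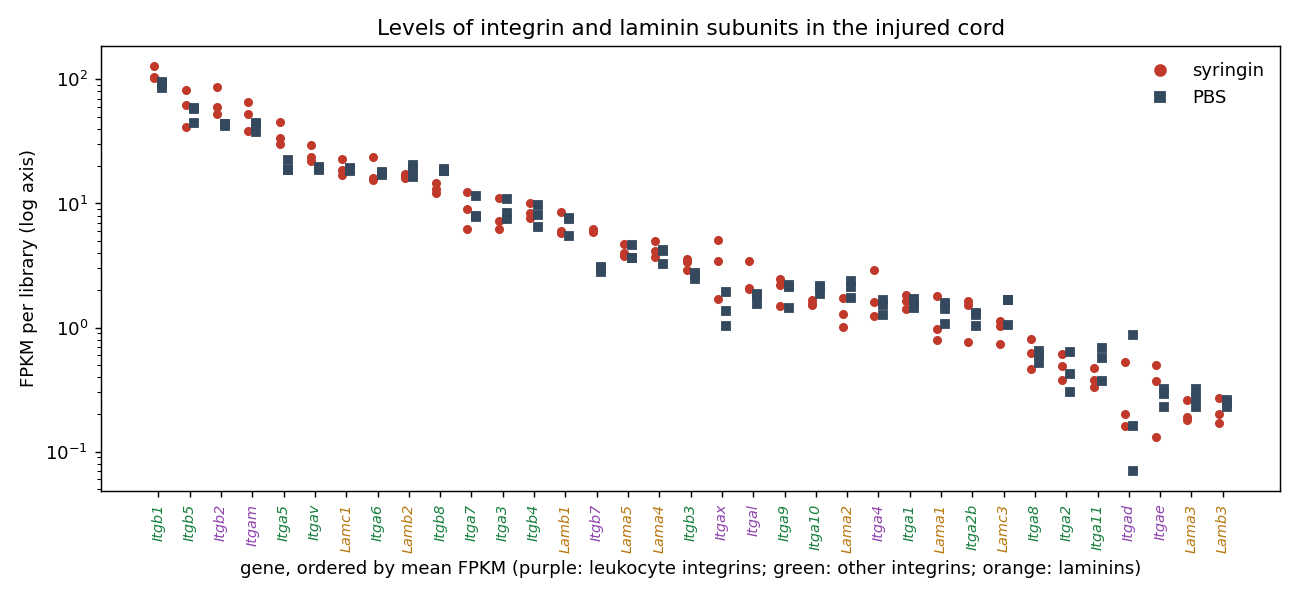
FPKM of 35 subunits (log axis) in the 3 syringin libraries (circles) and the 3 PBS libraries (squares), ordered by the mean over the 6 libraries. The order runs from Itgb1, with a mean of 101 FPKM, to Lamb3, with a mean of 0.23 FPKM, and the lowest Itgb1 library, at 84.6 FPKM, lies below the highest Itgb2 library, at 86.2 FPKM.

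Whether Syringin altered the injured cord's expression of these receptors and their matrix was read from the 2 groups, and 3 of the 36 subunits passed the test. The leukocyte chain Itgb7 and the fibronectin receptor chain Itga5 rose, and Itgb8, a partner of Itgav, fell in the syringin group. Of 8 leukocyte subunits 1 rose, none fell and 7 did not pass, with a median log2 fold change of 0.47. Of 17 other integrin subunits 1 rose, 1 fell and 15 did not pass (median 0.12), and of 11 laminin chains none passed (median -0.14), with 1 at an unadjusted p under 0.05. Over all 22114 genes tested the median was 0.01, 1.62% were called higher, 3.39% lower and 5.01% in either direction. The members' counts, 2 higher and 1 lower of 36, are small and were not tested against that background. An unadjusted p under 0.05 was found for 11 of the 36 members and for 5214 of the 22114 genes tested. In 9 members the groups did not overlap, with 7 above and 2 below PBS, and over all genes tested 30.0% were so divided, 14.7% above and 15.3% below. Values given below with ± and no unit are log2 fold changes of syringin over PBS with their standard error, and each adjusted p is from edgeR over all genes tested. With the mean of the Schwann cell markers as a covariate, none of the 36 passed, with adjusted p = 0.119 for Itgb7 (1.13), 0.355 for Itga5 (0.56) and 0.236 for Itgb8 (-0.44). That mean itself separated the groups, at 4.54, 5.09 and 4.37 log2 CPM in the syringin libraries and 5.31, 6.85 and 6.32 log2 CPM in the PBS libraries, so it and the treatment cannot be told apart.

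**Figure D2:**
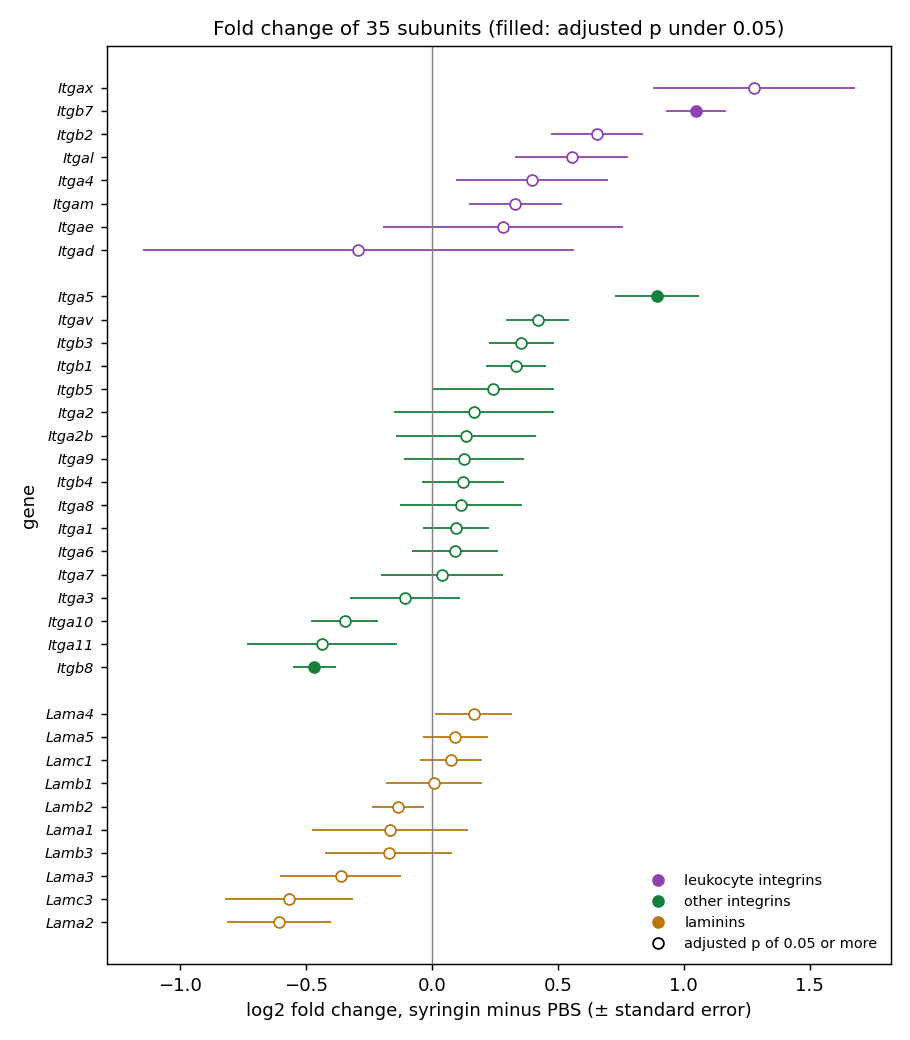
Log2 fold change of 35 subunits, syringin minus PBS, with its standard error, by family (n = 3 in each group). Filled points have an adjusted p under 0.05: Itgb7 at 1.05, Itga5 at 0.89 and Itgb8 at -0.47, and every laminin point is open.

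Itgb7 encodes the beta 7 chain, which pairs with Itga4 in a gut-homing receptor of lymphocytes and with Itgae in a receptor for E-cadherin. Its level was 17.7, 18.4 and 19.05 CPM in the syringin libraries and 8.37, 8.99 and 9.28 CPM in the PBS libraries. The 3 syringin libraries were all higher and close to each other. Itgb7 (ENSMUSG00000001281, chromosome 15) rose by 1.05 ± 0.12 (adjusted p = 0.0114), the smallest p of the 36 subunits. Without PBS replicate 3 its value was 1.08 (adjusted p = 0.0959), the only library whose absence ended this call.

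Neither alpha partner of Itgb7 passed. Itga4, which also pairs with Itgb1 in the receptor for Vcam1, was at 18.3, 45.1 and 24.8 CPM in the syringin libraries and 19.1, 22.9 and 25.1 CPM in the PBS libraries. Syringin replicate 2 was high and replicate 1 was below all PBS libraries, so the groups overlapped (0.40 ± 0.30, adjusted p = 0.480, and -0.05 without syringin replicate 2). Itgae had only 0.629, 2.58 and 1.90 CPM in the syringin libraries and 1.14, 1.47 and 1.58 CPM in the PBS libraries, with overlapping groups. It overlaps the gene Haspin on the other strand, with up to 452 counts. Per length, Itga4 reached 20.5%, 48.8% and 25.9% of the FPKM of Itgb7 in the syringin libraries and 45.4%, 50.3% and 53.9% in the PBS libraries, where syringin replicate 2 lay among the PBS libraries. Markers of T and NK cells, which carry these receptors, were low in all libraries, at 3.24, 5.53 and 6.48 CPM summed over 6 genes in the syringin libraries and 2.12, 0.921 and 3.75 CPM in the PBS libraries. The sums overlapped between the groups, Klrb1c was at 0 in syringin replicate 3 and Cd3g was at 0 in PBS replicate 2. Klrb1c alone had a negative value (-0.66), and the others ran from 0.91 for Cd3g to 1.49 for Cd2. Cd3d was higher in every syringin library than in any PBS library (1.24 ± 0.41, adjusted p = 0.123). None of the 6 passed the test, and the part of these cells in the rise of Itgb7 was not tested.

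No chain of the beta 2 family of leukocytes passed the test. Itgb2 was at 171.7, 293.6 and 203.6 CPM in the syringin libraries and 137.1, 144.0 and 143.7 CPM in the PBS libraries. All syringin libraries were above all PBS libraries, and syringin replicate 2 stood highest. The difference of 0.65 ± 0.18 missed the threshold (adjusted p = 0.0809). It was 0.41 without syringin replicate 2 (adjusted p = 0.0970) and 0.81 without syringin replicate 1 (adjusted p = 0.0219). Without syringin replicate 1 calls rose over all genes too, to 813 higher and 1131 lower, from 359 and 749 in the main fit.

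Itgax, the CD11c chain of dendritic cells and activated microglia, had the largest positive value of the 36, 1.28 ± 0.40 (adjusted p = 0.107). It was at 8.75, 27.2 and 18.4 CPM in the syringin libraries and 5.31, 7.03 and 10.02 CPM in the PBS libraries. Syringin replicates 2 and 3 were high, but replicate 1 lay below PBS replicate 3, so the groups overlapped. The value was 1.61 without syringin replicate 1 (adjusted p = 0.0186), where calls rose over all genes, and 0.86 without syringin replicate 2 (adjusted p = 0.270).

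Itgal, the alpha chain of the lymphocyte receptor for Icam1, was at 14.2, 25.1 and 15.1 CPM in the syringin libraries and 13.2, 10.9 and 12.9 CPM in the PBS libraries. The groups did not overlap, but syringin replicates 1 and 3 were near the highest PBS library (0.55 ± 0.23, adjusted p = 0.187, and 0.25 without syringin replicate 2). Itgam was at 279.9, 366.4 and 212.2 CPM in the syringin libraries and 235.9, 203.9 and 242.5 CPM in the PBS libraries, with syringin replicate 3 among the PBS libraries (0.33 ± 0.19, adjusted p = 0.331). The value of Itgam was 0.11 without syringin replicate 2 and 0.50 without syringin replicate 3. Itgam overlaps, on the same strand, the predicted gene Gm49368, with up to 482 counts, and their counts may share reads.

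Itgam, Itgax and Itgad are neighbours, with Itgax 11.1 kb after Itgam and Itgad 3.7 kb after Itgax in the coordinates of the deposited table. Per length, Itgax reached 4.94 ± 1.49% of the FPKM of Itgb2 in the syringin group and 3.32 ± 0.994% in the PBS group, and Itgam 79.4 ± 18.1% in the syringin group and 97.7 ± 10.1% in the PBS group. Both ratios overlapped between the groups. Itgad, a further alpha partner of Itgb2, was at 2.56, 0.814 and 1.0 CPM in the syringin libraries and 4.22, 0.342 and 0.806 CPM in the PBS libraries. Its replicates 1 were high in both groups, apart from the other 4 libraries. Of the 8 leukocyte subunits, 6 had their highest value in syringin replicate 2, as had 8 of the 17 other integrins and 4 of the 11 laminin chains. The share over all genes was not counted. Syringin replicate 2 also had the highest sum of macrophage markers, 5220 CPM, of which Lyz2 made 3673 CPM. Of the 8 macrophage markers, 7 had positive values, while Csf1r was lower in every syringin library (-0.29 ± 0.15, adjusted p = 0.299).

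Microglia and neutrophils also carry Itgb2 and Itgam. Of 6 microglia markers none passed and 3 were lower in every syringin library (median -0.53), with sums of 195, 231.4 and 286.3 CPM in the syringin libraries and 279.7, 276.1 and 358.9 CPM in the PBS libraries. Of 7 neutrophil markers Mmp8 rose and the others did not pass (median -0.34), with sums of 73.9, 57.9 and 28.9 CPM in the syringin libraries and 52.9, 77.4 and 48.2 CPM in the PBS libraries. Both sums overlapped between the groups. The part of macrophages, microglia and neutrophils in the values of the leukocyte integrins was not tested.

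**Figure D3:**
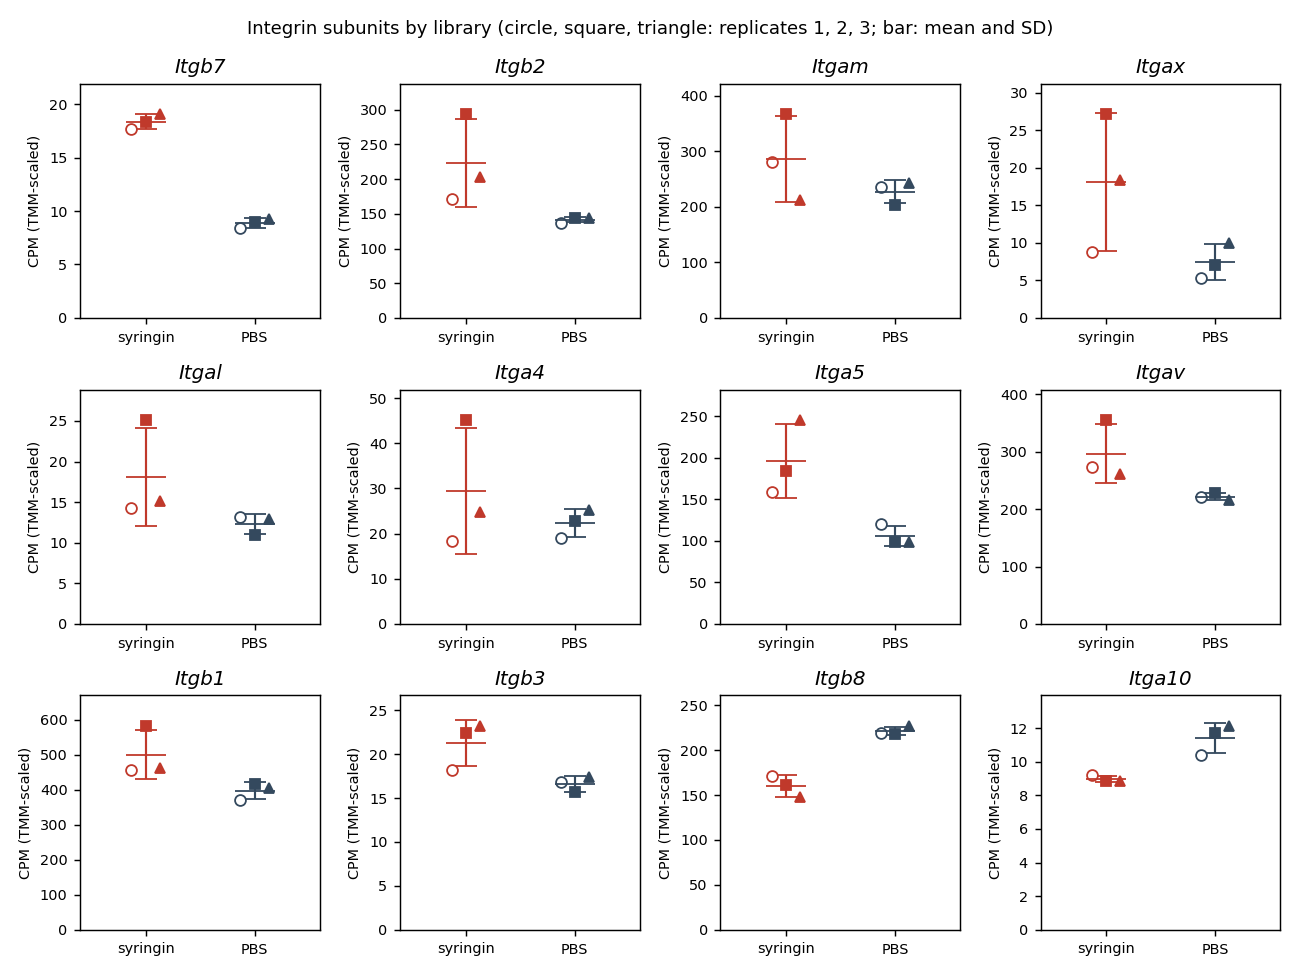
TMM-scaled CPM of 12 integrin subunits in the syringin and PBS libraries (circle, square and triangle for replicates 1, 2 and 3), with the mean and SD of each group. The groups overlap in Itgam, Itgax and Itga4, and do not overlap in Itgb7, Itga5, Itgb8, Itgb2, Itgal, Itgav, Itgb1, Itgb3 and Itga10. Syringin replicate 2 is highest in Itgb2, Itgam, Itgax, Itgal, Itga4, Itgav and Itgb1.

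Among the other integrins the RGD receptors, which bind an arginine, glycine and aspartate motif in fibronectin, vitronectin and latent TGF-beta, held both calls. Itga5, the alpha chain that pairs with Itgb1 in the main fibronectin receptor, was at 159.0, 184.3 and 245.5 CPM in the syringin libraries and 119.8, 98.8 and 98.5 CPM in the PBS libraries. All syringin libraries were higher, with replicate 3 highest. Itga5 (ENSMUSG00000000555, chromosome 15) rose by 0.89 ± 0.17 (adjusted p = 0.0290). Its adjusted p was 0.0574, 0.111 and 0.165 without PBS replicate 1, 2 and 3, and 0.0619 and 0.0618 without syringin replicate 2 and 3, so the call was lost without any of these 5 libraries, while the value lay between 0.69 and 1.02 when any library was left out.

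Its partner Itgb1 was at 457.1, 582.6 and 464.0 CPM in the syringin libraries and 371.2, 416.7 and 406.2 CPM in the PBS libraries. The groups did not overlap, and the difference of 0.33 ± 0.12 missed the threshold (adjusted p = 0.144), with 0.21 without syringin replicate 2. Per length, Itga5 had 28.8%, 26.2% and 43.8% of the FPKM of Itgb1 in the syringin libraries and 26.7%, 19.6% and 20.0% in the PBS libraries, where syringin replicate 2 lay just under PBS replicate 1.

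Itgb8 encodes a beta chain that pairs with Itgav, binds latent TGF-beta and is made by astrocytes and neural progenitors in the central nervous system. It was at 171.5, 161.2 and 147.5 CPM in the syringin libraries and 219.0, 218.0 and 226.7 CPM in the PBS libraries. The PBS libraries lay close together and above every syringin library. Itgb8 (ENSMUSG00000025321, chromosome 12) fell by 0.47 on the log2 scale (SE 0.09, adjusted p = 0.0294). The adjusted p was 0.0803, 0.0925 and 0.165 without PBS replicate 1, 2 and 3, and 0.0688 and 0.0731 without syringin replicate 2 and 3, with values from -0.52 to -0.42 over all libraries left out. The 6 astrocyte markers had a median of -0.53, 1 of them fell (Slc1a2), and the range of their sum was 4718 to 6542 CPM in the syringin libraries and 7066 to 8585 CPM in the PBS libraries. The groups overlapped in Gfap, Aqp4, Gja1 and Aldh1l1 of these markers. The part of astrocytes in the fall of Itgb8 was not tested.

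Itgav, the common alpha chain of the vitronectin and TGF-beta receptors, was at 273.2, 355.2 and 262.1 CPM in the syringin libraries and 220.9, 228.6 and 216.3 CPM in the PBS libraries. Every syringin library was higher, and the difference of 0.42 ± 0.13 missed the threshold (adjusted p = 0.0967), with 0.27 without syringin replicate 2. Per length, Itgb8 stood at 61.0%, 44.1% and 54.6% of the FPKM of Itgav in the syringin libraries and at 96.3%, 92.6% and 102.0% in the PBS libraries. These ratios did not overlap between the groups, which follows from Itgb8 being lower and Itgav higher in every syringin library.

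The other tested beta partners of Itgav had positive values that did not pass. Itgb3, also the platelet chain that pairs with Itga2b, was at 18.2, 22.4 and 23.2 CPM in the syringin libraries and 16.9, 15.6 and 17.4 CPM in the PBS libraries, which did not overlap (0.35 ± 0.13, adjusted p = 0.148). Itga2b itself was at 8.95, 4.71 and 9.96 CPM in the syringin libraries and 7.83, 7.58 and 6.13 CPM in the PBS libraries, with syringin replicate 2 lowest and the groups overlapping (0.13 ± 0.28). Of 6 platelet markers Pf4 rose, 4 had overlapping groups and did not pass, and Gp6 was at 0 in 4 of the 6 libraries. Their sum was 75.2 to 114 CPM in the syringin libraries and 45.9 to 47.8 CPM in the PBS libraries, nearly all of it Pf4, and without Pf4 it was 3.48 to 12.2 CPM in the syringin libraries and 5.07 to 7.71 CPM in the PBS libraries, which overlapped. The part of platelets in the value of Itgb3 was not tested. Itgb5 was at 157.6, 325.4 and 243.1 CPM in the syringin libraries and 168.7, 220.0 and 225.4 CPM in the PBS libraries, with the lowest of all libraries in the syringin group (0.24 ± 0.24, adjusted p = 0.609, and -0.03 without syringin replicate 2). Itgb6, below the count limit, had 18, 13 and 0 counts in the syringin libraries and 5, 7 and 5 counts in the PBS libraries. Itga8, a receptor for nephronectin, had overlapping groups (0.11 ± 0.24).

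No collagen receptor passed. Itga10, an alpha chain best known from cartilage, was at 9.19, 8.85 and 8.88 CPM in the syringin libraries and 10.4, 11.7 and 12.1 CPM in the PBS libraries, with all syringin libraries lower (-0.35 ± 0.13, adjusted p = 0.163). It shares its strand and place with the predicted gene Gm42957, with up to 190 counts. Itga11, a fibroblast collagen receptor, had a value of -0.44 ± 0.30, Itga1 of 0.10 ± 0.13 and Itga2 of 0.17 ± 0.32, all with overlapping groups. The gene Pelo, with up to 1030 counts, lies on the strand of Itga1 within its span, so part of the counts of Itga1 may be shared.

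The laminin receptor chains did not pass either. Itga6, which pairs with Itgb1 or Itgb4, was at 155.3, 240.8 and 155.9 CPM in the syringin libraries and 166.8, 174.7 and 176.7 CPM in the PBS libraries, and syringin replicate 2 alone was above the PBS libraries (0.09 ± 0.17). Itgb4, the beta chain of hemidesmosomes and of Schwann cells, had a value of 0.12 ± 0.16, with 60.02 to 77.8 CPM in the syringin libraries and 49.2 to 73.9 CPM in the PBS libraries. The groups overlapped in both chains. Itga7, the muscle laminin receptor, was at 107.8, 56.3 and 80.5 CPM in the syringin libraries and 100.4, 68.6 and 69.1 CPM in the PBS libraries (0.04 ± 0.24). Itga3, the laminin receptor chain of epithelia, was at 67.5, 39.5 and 45.5 CPM in the syringin libraries and 67.1, 51.4 and 45.9 CPM in the PBS libraries (-0.11 ± 0.22).

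In 4 of the 36 members, Itga7, Itga3, Itgad and the laminin chain Lama5, the replicate 1 libraries of both groups were above the other 4. How many of all genes had this pattern was not counted, so these 4 cannot be set against a background. The replicate 1 libraries also had the highest sums of sensory ganglion markers, 275.6 CPM in syringin replicate 1 and 344.7 CPM in PBS replicate 1. Markers of skeletal muscle, which also makes Itga7, summed to 1.81 to 2.21 CPM in the syringin libraries and 2.23 to 5.97 CPM in the PBS libraries. The part of either tissue in these 4 genes was not tested. With the ganglion marker mean as a covariate, 8 members passed, 6 higher and 2 lower, and the added ones were Itgb2, Itgax, Itgav, Itgb1 and Lama2. Calls also rose over all 22114 genes tested, to 1138 higher and 1448 lower, from 359 and 749 in the main fit.

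**Figure D4:**
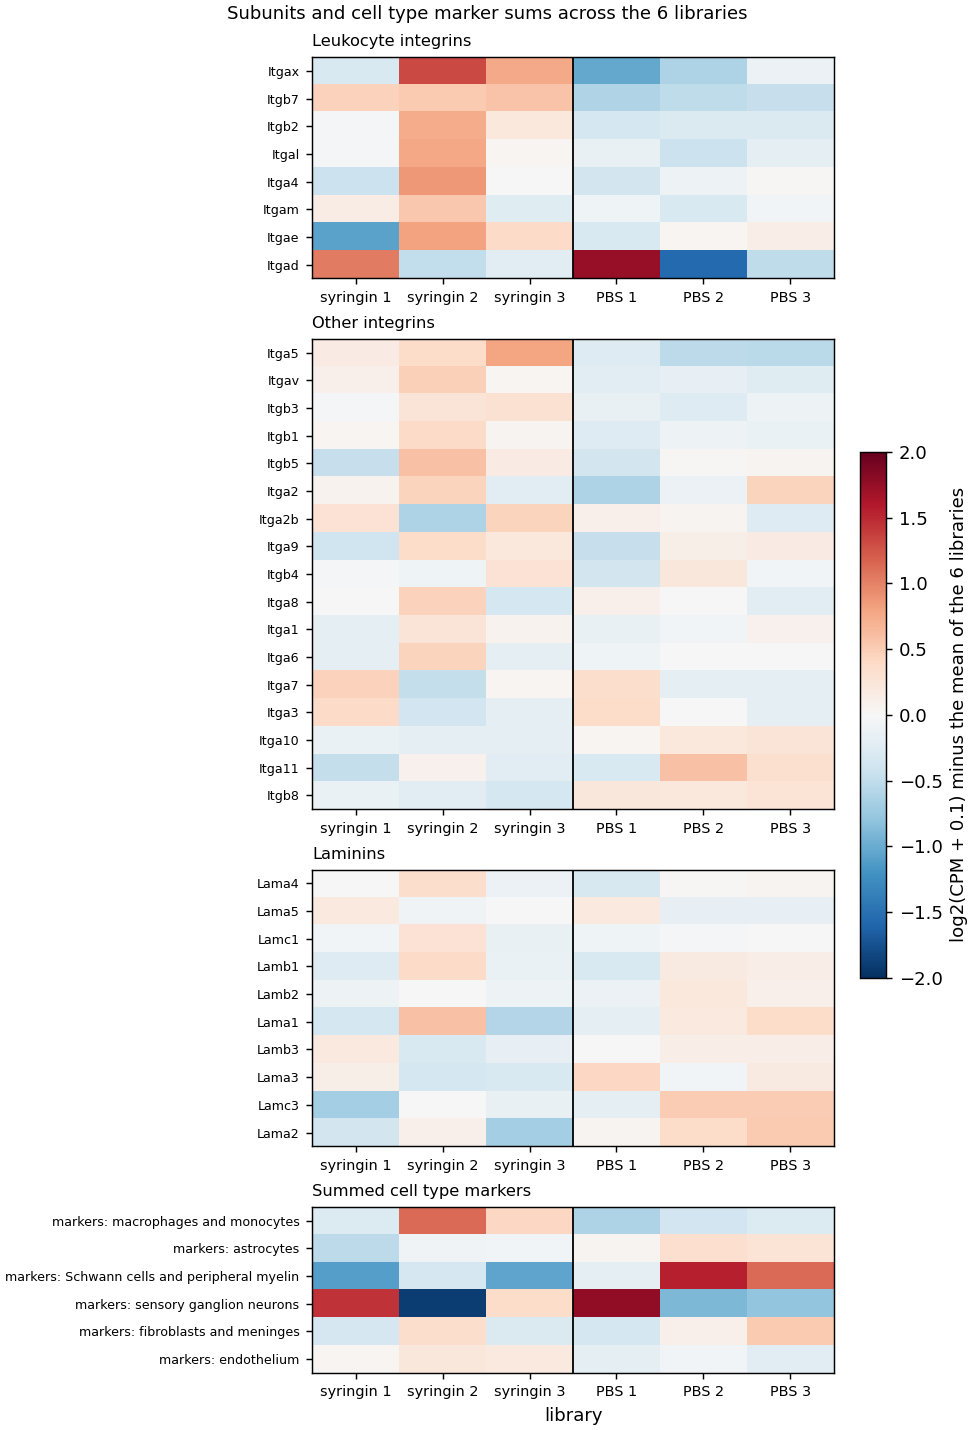
Colours give log2(CPM + 0.1) minus the mean of the 6 libraries for 35 subunits and for the summed markers of 6 cell types, with syringin libraries left of the line and PBS libraries right of it, and the scale ends at 2 in either direction. Leukocyte subunits other than Itgb7 and Itgad are darkest red in syringin replicate 2, as are the macrophage markers. That library is also the highest for 8 other integrins and 4 laminin chains. Itgad, Itga7, Itga3 and the ganglion markers are highest in replicate 1 of both groups.

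The last of the integrins, Itga9, a receptor for tenascin C, had 12.3 to 21.1 CPM in the syringin libraries and 11.9 to 18.2 CPM in the PBS libraries, with overlapping groups (0.13 ± 0.24).

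None of the laminin chains passed. The lowest value was that of Lama2, the alpha chain of muscle and Schwann cell basement membranes, which was at 22.9, 31.9 and 18.5 CPM in the syringin libraries and 30.8, 38.2 and 42.7 CPM in the PBS libraries. Syringin replicate 2 was above PBS replicate 1, so the groups overlapped (-0.61 ± 0.21, adjusted p = 0.1304). With the Schwann cell marker mean as a covariate the value of Lama2 was -0.03 ± 0.28. That mean separated the groups, so it and the treatment cannot be told apart. Lama2 was called lower with DESeq2 and with the ganglion covariate. The part of Schwann cells in its value was not tested. Markers of fibroblasts and meninges, which also make Lama2, summed to 1488, 2408 and 1540 CPM in the syringin libraries and 1481, 2025 and 2723 CPM in the PBS libraries.

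Lamc3, a gamma chain of peripheral nerve and of the pial surface, was at 4.76, 7.69 and 6.95 CPM in the syringin libraries and 6.82, 10.97 and 10.98 CPM in the PBS libraries, with PBS replicate 1 among the syringin libraries (-0.57 ± 0.25, adjusted p = 0.225). Lama3 was at 2.96, 2.13 and 2.20 CPM in the syringin libraries and 3.67, 2.62 and 3.11 CPM in the PBS libraries (-0.36 ± 0.24, adjusted p = 0.413, and -0.23 without PBS replicate 1). The chains of the vascular and general basement membrane showed small values. Lamc1 was at 164.6, 210.5 and 155.6 CPM in the syringin libraries and 161.7, 169.7 and 172.3 CPM in the PBS libraries (0.08 ± 0.12). Lamb1 was at 60.6, 93.96 and 66.3 CPM in the syringin libraries and 58.4, 81.6 and 79.6 CPM in the PBS libraries (0.01 ± 0.19), and Lamb2 at 108.8, 117.3 and 108.9 CPM in the syringin libraries and 107.4, 135.5 and 124.9 CPM in the PBS libraries (-0.14 ± 0.10). In all 3 of these chains the groups overlapped. The endothelial chains had values of 0.17 ± 0.15 for Lama4 and 0.09 ± 0.13 for Lama5, with overlapping groups. Lama1, of the pial membrane, had -0.17 ± 0.31 and Lamb3 -0.17 ± 0.25, and their groups overlapped too. Lamb3, with 84 to 155 counts, overlaps the predicted gene Gm37691 on the same strand, with up to 150 counts, and their counts may share reads. It also overlaps Hsd11b1 on the other strand, with up to 1089 counts, and no source says if counting used strand.

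Genes that act with these subunits were read from 3 lists, given as counts beside the background above. Of 26 tested genes of integrin activation and the adhesion complex, 2 rose, 1 fell and 23 did not pass, with a median of 0.25. Rap1b, a small GTPase that switches integrins on, was at 257.8, 299.6 and 272.6 CPM in the syringin libraries and 198.6, 198.6 and 202.3 CPM in the PBS libraries and rose by 0.47 ± 0.09 (adjusted p = 0.0294). Parvb, an actin-binding partner of integrin-linked kinase, was at 70.9, 75.9 and 73.6 CPM in the syringin libraries and 57.4, 50.5 and 44.6 CPM in the PBS libraries and rose by 0.53 ± 0.11 (adjusted p = 0.0371).

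The 2 talins, which join beta chains to actin, had opposite values. Tln2, the talin of brain and muscle, was at 68.0, 63.2 and 63.7 CPM in the syringin libraries and 92.7, 89.9 and 99.4 CPM in the PBS libraries and fell by 0.53 on the log2 scale (SE 0.08, adjusted p = 0.0192). Of 6 neuron markers 3 fell, and their sum was 1686, 1084 and 1513 CPM in the syringin libraries and 2793, 2211 and 2640 CPM in the PBS libraries, whose part in the fall of Tln2 was not tested. Tln1, the talin of leukocytes and most other cells, was at 367.6, 430.5 and 357.1 CPM in the syringin libraries and 291.2, 289.3 and 284.6 CPM in the PBS libraries, which did not overlap but missed the threshold (0.42 ± 0.10, adjusted p = 0.0518). Fermt3, the kindlin of blood cells, had a value of 0.64 ± 0.15 (adjusted p = 0.0512).

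Among 20 tested ligands and counter-receptors 4 rose, none fell and 16 did not pass, with a median of 0.28. Tnc, the matrix glycoprotein tenascin C, rose by 0.90 ± 0.14 (adjusted p = 0.0205), with 279.9, 297.0 and 371.9 CPM in the syringin libraries and 151.5, 162.1 and 196.2 CPM in the PBS libraries. Thbs1, the matrix protein thrombospondin 1, was at 978.3, 1754 and 1262 CPM in the syringin libraries and 578.2, 416.8 and 721.8 CPM in the PBS libraries and rose by 1.22 ± 0.26 (adjusted p = 0.0410). Lgals3, a galectin of macrophages, was at 404.7, 659.7 and 587.7 CPM in the syringin libraries and 241.8, 283.1 and 231.9 CPM in the PBS libraries and rose by 1.13 ± 0.18 (adjusted p = 0.0206). In both genes every syringin library was above every PBS library. Tgfb1, whose latent form Itgav receptors bind, was at 61.6, 84.98 and 76.6 CPM in the syringin libraries and 42.5, 48.7 and 52.5 CPM in the PBS libraries and rose by 0.64 ± 0.14 (adjusted p = 0.0424).

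Further ligands were chosen for their receptors, after their values were seen. Fn1, the fibronectin ligand of Itga5, was at 1144, 1802 and 1407 CPM in the syringin libraries and 933.5, 1236 and 1465 CPM in the PBS libraries, with overlapping groups (adjusted p = 0.506). Vtn, the vitronectin ligand of Itgav, was at 60.2, 73.3 and 65.5 CPM in the syringin libraries and 75.2, 127.3 and 116.4 CPM in the PBS libraries (-0.68 ± 0.19, adjusted p = 0.0796). Spp1 and Mfge8 of the same list were higher in every syringin library but missed the threshold (adjusted p = 0.0851 and 0.0973). Spp1 had 3615.5 to 10262 CPM in the syringin libraries and 2526.2 to 3375 CPM in the PBS libraries. Mfge8 had 70.1 to 113.0 CPM in the syringin libraries and 54.3 to 69.8 CPM in the PBS libraries. Fgb, like Vtn, was lower in every syringin library (adjusted p = 0.136). Vcam1 and Icam1, the endothelial partners of Itga4 and of the beta 2 family, had values of 0.03 and 0.47 with overlapping groups, and Cdh1, the partner of Itgae, -0.43.

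None of the 21 genes of the basement membrane and of laminin binding outside the integrins passed (median 0.02). An unadjusted p under 0.05 was found for 6 of these 21, beside 5214 of the 22114 genes tested. The collagen IV chains Col4a1 and Col4a2 were higher in every syringin library than in any PBS library, by 0.43 ± 0.14 and 0.36 ± 0.13, but missed the threshold (adjusted p = 0.111 and 0.134). The other collagen IV chains did not pass either, with Col4a3 lower in every syringin library (-0.77 ± 0.29, adjusted p = 0.162) and overlapping groups in Col4a4 (-0.28), Col4a5 (-0.07) and Col4a6 (0.35). Endothelial markers, of which Pecam1 rose, summed to 554.2, 630.0 and 616.7 CPM in the syringin libraries and 469.2, 516.0 and 458.5 CPM in the PBS libraries, and their part in the values of Col4a1 and Col4a2 was not tested. The nidogens that link laminin to collagen IV had values of 0.35 for Nid2, with groups that did not overlap (adjusted p = 0.0974), and 0.02 for Nid1. Dag1, the dystroglycan that binds laminin on glia and muscle, had -0.30, with overlapping groups.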

How the data were processed

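Members and gene lists were chosen with earlier results of these data known. The labels' protocols give TRIzol extraction and a TruSeq stranded mRNA kit; the submitters' processing notes name HISAT2, StringTie, GRCm38 and mm10. The authors deposited estimated counts (whole numbers) and FPKM values for 37475 genes. Of the 36 members 0 start where a GRCm38 annotation (GENCODE M21) puts them, so the build of the table's coordinates is unclear.

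Counts were filtered with filterByExpr (minimum 10, total 15), scaled by TMM (factors 0.9655 to 1.0292) and fitted with edgeR 4.0.16 (R 4.3.3; robust quasi-likelihood, treatment as sole term, two-sided), after tests on simulated counts. A standard error is the size of the fold change divided by the root of its F. The common biological coefficient of variation was 24.9%. Values in every library are given for called members, for the 3 with the smallest p and the 3 with the highest FPKM in each family, for partner chains and for called genes of the other lists; remaining named genes were chosen after their values were seen. Alternatives were RLE or no factors, DESeq2 1.42.0, limma 3.58.1 (voom; log2(FPKM + 0.1)), other filters, counts divided by 4, a replicate block, 2 marker covariates, each library left out, and Itga4 moved to the other integrins. Promoters are RefSeq's. Protein sequences were not used here. The values of 1 laminin chain are not reported here, though the counts over the 36 members include it.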

Additional observations from a re-analysis of the deposited data

How the results depend on the processing

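Itgb7, Itga5 and Itgb8 kept their direction under all 17 alternatives, and were called in 15, 11 and 11 of them. The 11 subunits with an unadjusted p under 0.05 kept their sign in all 187 refits, and among the 25 others 42 of 425 refits had the other sign, in 21 subunits. With DESeq2, 3 leukocyte and 2 other integrins were called higher and 1 laminin lower, with 19 of the genes in the 3 lists and 1170 higher and 1653 lower over all genes. With the ganglion covariate the counts were 3, 3, 1, 17, 1138 and 1448. With the Schwann cell covariate no gene was called (0 by edgeR, 3850 at an unadjusted p under 0.05). On FPKM with limma, 4 list genes and 189 higher genes were called.

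The replicate numbers are not stated to pair the animals. Deviations of same-numbered libraries from their group means correlated at 0.292, 0.123 and 0.052, and syringin replicate 2 correlated more with PBS replicate 3 (0.135). With the replicate block, 3 leukocyte and 2 other integrins were called higher, with 16 list genes and 1062 higher and 1495 lower genes; Itgb2, Itgax and Itgav were added (adjusted p = 0.0375, 0.0329 and 0.0427).

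When each library was left out, leukocyte integrins called higher ranged from 0 to 3, other integrins called higher from 0 to 1 and lower from 0 to 1, list genes from 0 to 20, and all genes from 0 to 813 higher and from 0 to 1131 lower. Without PBS replicate 3 edgeR called 0 genes, with 3449 at an unadjusted p under 0.05.

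The 21 subunits that changed sign included some with larger values, such as Lamc3 (-0.57) and Itga11 (-0.44, up to 0.49). Lamb1 was at -0.03 without composition factors and on FPKM (-0.027 and -0.0267), -0.0051 with voom, -0.001 with a mean of 50 counts or more and -0.0027 with the block, and from -0.2065 to 0.1269 with a library left out. With the Schwann covariate Lamb2 was at 0.18 and Lamc3 at 0.15. With a library left out, Itga4 ran from -0.05 to 0.6425, Itgae from -0.1502 to 0.6768, Itgb5 from -0.0301 to 0.4707 and Lamc1 from -0.0681 to 0.1551, each lowest without syringin replicate 2. The cause was not tested. The lowest members, such as Itgad with 23 to 319 counts and Itgae with 51 to 165, limit what depth can show. Counting Itga4 with the other integrins changed no count.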
